A study of Mus musculus with 24 samples.

Results

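The change in liver mRNA after 24 h without food was measured in control mice. All 6 arrays of fasted livers (LWT_Fasted) and all 6 arrays of fed livers (LWT_Fed) with the genotype label p110aLWT were taken, which is 12 of the 24 arrays in the series, with 1 array per mouse. The mice were males aged 12 weeks that carried floxed alleles of Pik3ca but no albumin-Cre transgene, so that hepatocytes kept p110α, a catalytic subunit of phosphoinositide 3-kinase that acts downstream of the insulin receptor. The controls therefore share the floxed alleles with the knockout littermates (LKO), whose arrays entered the choice of probe per gene, the slide term and the estimate of the spread between mice, and a few stated comparisons. Fed mice had free access to chow until they were killed, fasted mice had no food for 24 h from Zeitgeber time 16, and both groups were killed at Zeitgeber time 16. Whole liver was used, so a lower level of a gene that is specific to 1 cell type cannot be told apart from fewer cells of that type.

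In the fed state insulin drives the liver to take up glucose, to store it as glycogen and to turn the surplus into fatty acids and triglycerides. SREBP-1c and ChREBP are the transcription factors of this lipogenic programme, and SREBP-2 is that of cholesterol synthesis. In a fast, falling insulin and rising glucagon and glucocorticoids switch the liver to glycogen breakdown, gluconeogenesis, fatty acid oxidation and ketone body production. PPARα, activated by fatty acids, drives genes of fat oxidation, and FOXO1, which insulin holds out of the nucleus, drives gluconeogenic genes. The comparison asks which gene families take part in this switch in a liver whose hepatocytes keep p110α.

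A gene was called higher or lower where it differed by more than 1.5-fold at an adjusted p of 0.05 or below. Of 21652 genes tested, 1032 were called higher in fasted livers and 1123 lower, which is 4.77% and 5.19% of all genes and 9.95% together. The median log2 fold change over all genes was -0.01, where quantile normalization gives each array nearly the same distribution. At any fold, 9632 genes had an adjusted p of at most 0.05, so most of these changes were smaller than 1.5-fold. For 1765 of the 2155 called genes every fasted array lay on the same side of every fed array, and the sign was the same on all 3 slides for 2146 of them. Over all 21652 genes, called or not, the groups did not overlap for 4615 (21.3%). On each LWT array 55.9% to 62.1% of spots were well above background, and no spot was saturated. Genes were then grouped into 75 lists by pathway, family or cell type, which hold 1823 measured genes, of which 418 were called. The count of each list is to be read against the 9.95% of all genes called either way. A gene is given by its brightest probe, and where other probes of a named gene were not called the same way their log2 fold changes are stated. Levels are normalized log2 signals, given as the lowest to the highest of the 6 arrays of a group, and changes are log2 fold changes of fasted over fed mice, so that 1 is a doubling.

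**Figure D1:**
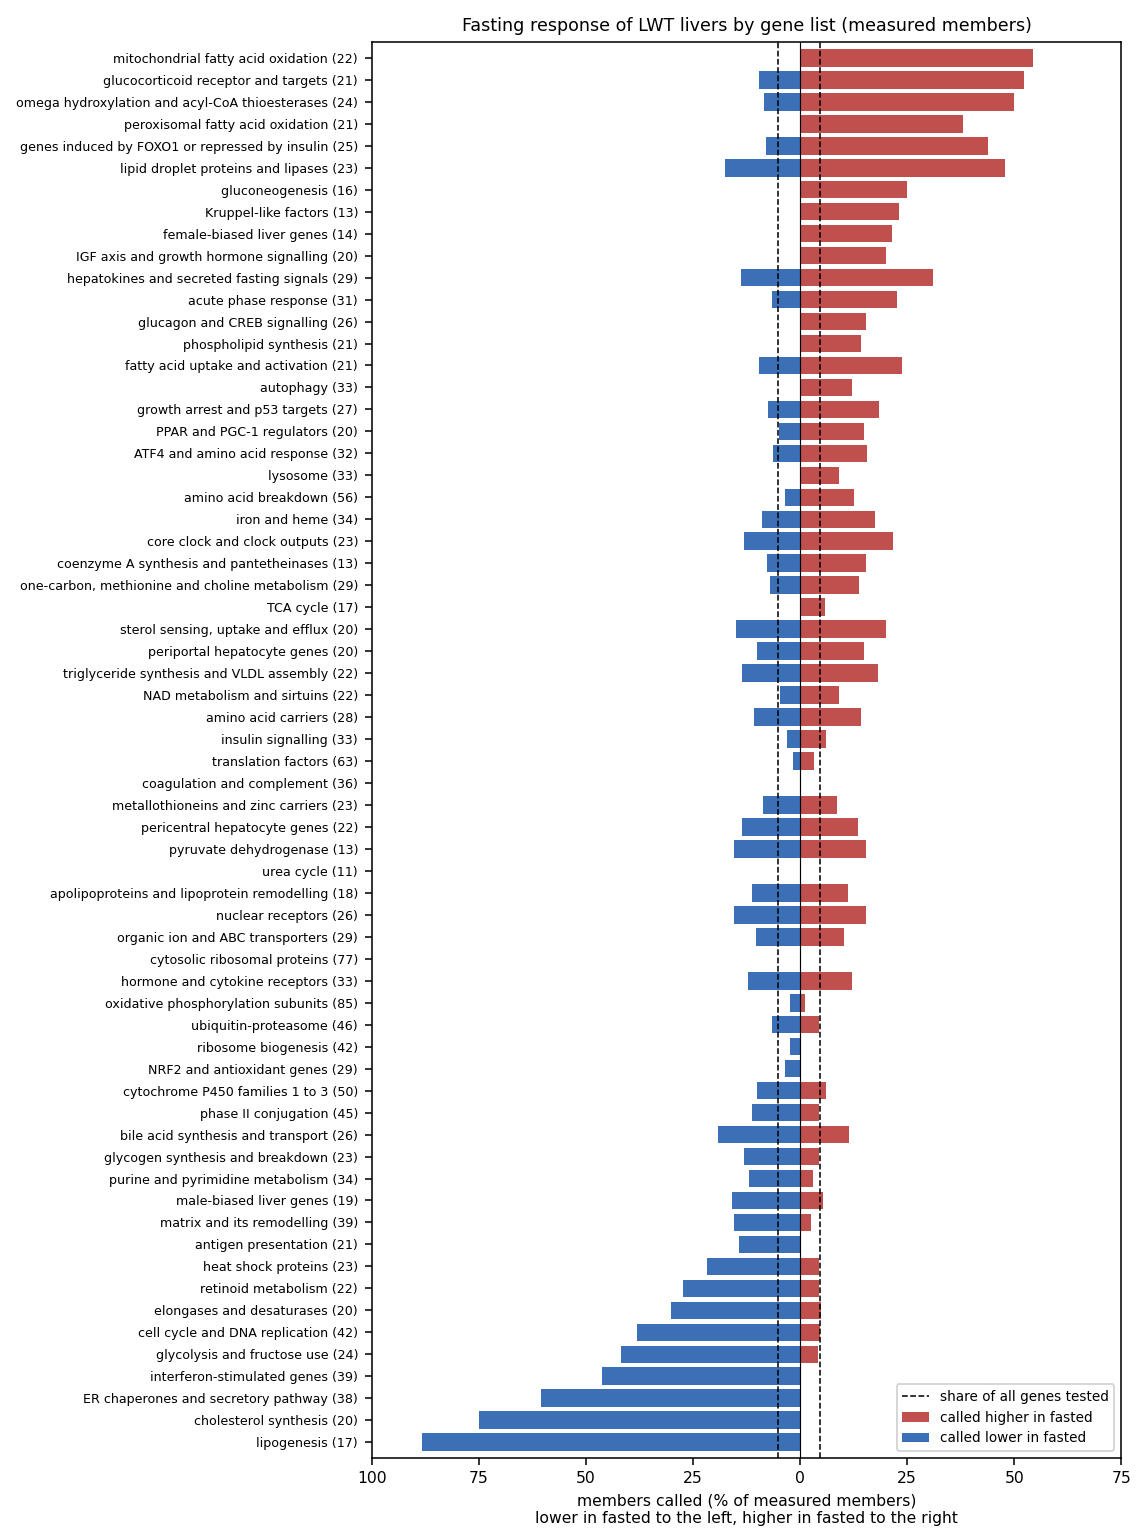
Share of the measured members of each gene list that was called lower (blue, to the left) or higher (red, to the right) in fasted LWT livers, for lists of at least 11 measured genes other than cell type markers. Dashed lines mark the 5.19% and 4.77% of all genes called in each direction. Lipogenesis, cholesterol synthesis, ER chaperones and interferon-stimulated genes extend farthest to the left, and mitochondrial fatty acid oxidation and glucocorticoid targets farthest to the right.

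Lipogenesis was the list with the largest share of calls. Of its 17 measured genes 15 fell, with a list median of -1.64. The list holds genes of fatty acid synthesis from citrate, of NADPH supply and the pentose phosphate pathway, and regulators. Acly, which splits citrate into acetyl-CoA, lay at 15.32 to 16.53 (median 15.83) fed and 12.62 to 12.94 (median 12.73) fasted. The groups did not overlap, and Acly fell by 3.02 on the log2 scale (SE 0.134, adjusted p = 3.14e-13). Fasn, the fatty acid synthase, lay at 17.33 to 18.08 (median 17.83) fed and 13.45 to 14.02 (median 13.82) fasted. Fasn was 15.4-fold lower (log2 fold change -3.94 ± 0.13 SE, adjusted p = 4.33e-15). Thrsp, a nuclear protein that promotes lipogenic expression, lay at 17.19 to 18.03 (median 17.60) fed and 12.61 to 13.82 (median 13.11) fasted, again with a gap between the groups (log2 fold change -4.25 ± 0.211 SE, adjusted p = 1.69e-12). Mid1ip1, a paralogue of Thrsp that activates acetyl-CoA carboxylase, fell by 3.31, and the carboxylases themselves, Acaca and Acacb, fell (-2.13 and -1.16). Both regulators were also lower, Srebf1 (-2.76) and Mlxipl (-0.92), which encodes ChREBP. Of the NADPH-producing enzymes, malic enzyme Me1 (-1.64), Pgd (-1.41) and G6pdx (-1.35) fell. Of other pentose phosphate enzymes, Tkt fell (-0.85, second probe 0.05), and Taldo1 (-0.45) and Pgls (-0.09) were not called. Other probes gave -0.22 to 0.03 for Acacb and -1.03 to 0.05 for Mlxipl. The count of 15 was the same when any 1 array was left out.

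Among 20 elongases and desaturases, 6 fell and 1 rose. Elovl6, which lengthens palmitate to stearate, lay at 13.87 to 15.26 (median 14.41) fed and 10.44 to 11.35 (median 10.74) fasted, without overlap (log2 fold change -3.55 ± 0.175 SE, adjusted p = 1.65e-12). The stearoyl-CoA desaturases Scd3, Scd1 and Scd2 fell (-2.13, -1.31 and -0.68), and Scd4 was not called (-0.36). Elovl3, an elongase of saturated very-long-chain fatty acids, was the member that rose (1.70 ± 0.406 SE, adjusted p = 0.00165). Fads3 fell (-0.67, second probe -0.36), and enzymes of polyunsaturated fatty acids that were not called stood at -0.32 for Fads1, -0.00 for Fads2, 0.22 for Elovl2 and 0.23 for Elovl5.

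Triglyceride synthesis did not move as a block. Of 22 genes, 4 rose and 3 fell, and the list median was 0.15. The first step, the acylation of glycerol-3-phosphate, is catalysed by several isoenzymes, and these parted ways. Gpam, the mitochondrial isoenzyme, lay at 14.62 to 16.03 (median 15.42) fed and 13.67 to 14.35 (median 13.89) fasted and fell (-1.41 ± 0.148 SE, adjusted p = 1.02e-07). Agpat9, now named Gpat3, of the endoplasmic reticulum, lay at 7.39 to 8.83 (median 8.38) fed and 11.11 to 11.76 (median 11.36) fasted and rose (3.07 ± 0.177 SE, adjusted p = 1.5e-11), and Agpat6, now Gpat4, rose by 1.01. The phosphatidate phosphatases Lpin1 and Lpin2 rose by 1.16, with overlapping arrays, and 1.13, and their other probes gave -0.04 to 1.08 and -0.02 to 1.35. The last step was split as well, with Dgat2 lower (-0.60) and Dgat1 not called at 0.52. Mttp, which loads lipid onto apolipoprotein B, and Apob itself were not called (0.22 and 0.24).

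Proteins of the lipid droplet moved in both directions. Of 23 genes, 11 rose and 4 fell. Cidec, which enlarges droplets, rose by 4.35, Plin4 by 3.54, Plin5 by 1.99 and Plin2, the main coat protein of liver droplets, by 1.57. Plin2 lay at 14.76 to 15.44 (median 14.83) fed and 16.05 to 16.66 (median 16.51) fasted, without overlap. The lipase Pnpla2, which starts triglyceride breakdown, and its inhibitor G0s2 rose together, by 2.03 and 2.06, although the G0s2 arrays overlapped between groups. The co-activator of the same lipase, Abhd5, fell by 0.79, with other probes at -0.84 to 0.32. The lipases Pnpla5 and Pnpla3 had little signal left in fasted livers. Pnpla5 lay at 11.41 to 13 (median 12.02) fed and 5.45 to 5.66 (median 5.55) fasted and did not stand well above background in any fasted mouse. In the weighted fit its log2 fold change was -6.38 (83.2-fold lower, adjusted p = 2.07e-13), and its second probe gave -3.44. From unweighted group means Pnpla5 was at least 88.1-fold lower, more than in the weighted fit, so neither size is exact. Pnpla3 lay at 10.29 to 11.87 (median 11.14) fed and 5.46 to 5.86 (median 5.72) fasted, with 1 of 6 fasted arrays well above background. Pnpla2 was 4.09-fold higher, and Pnpla7, a lysophospholipase, fell by 0.62.

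**Figure D2:**
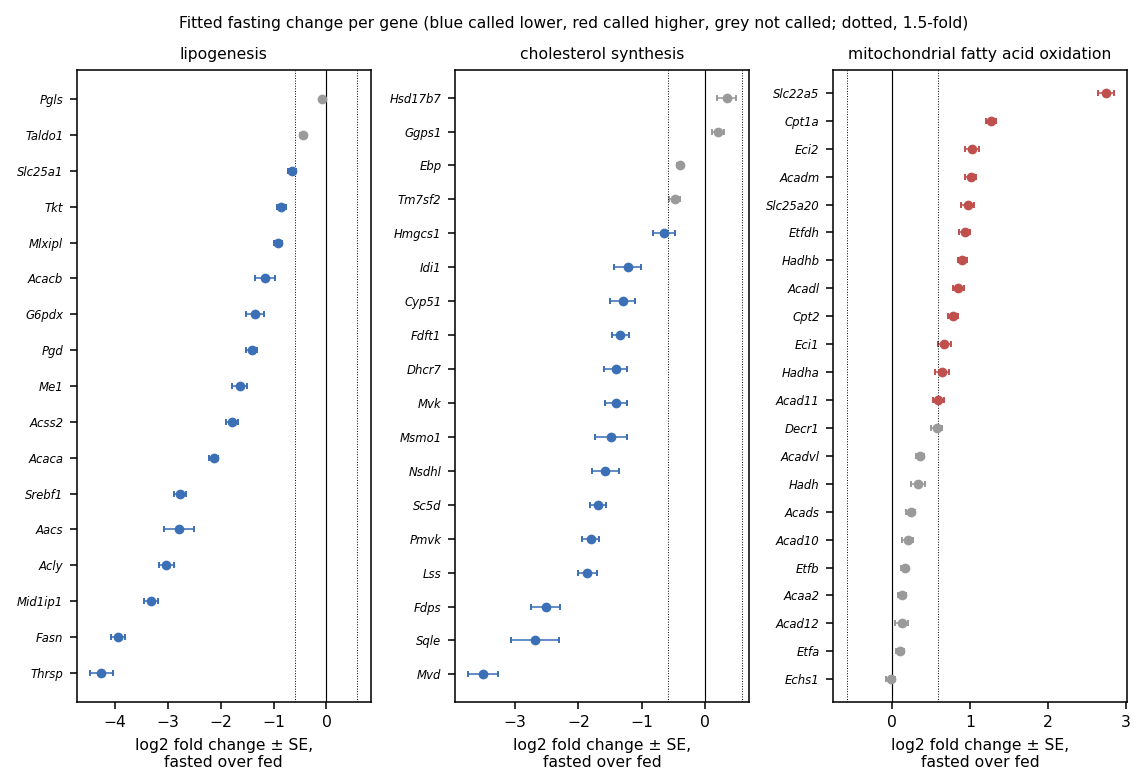
Fitted log2 fold change (fasted over fed) with its standard error for 17 genes of lipogenesis, 18 of cholesterol synthesis and 22 of mitochondrial fatty acid oxidation in LWT livers, 6 arrays per group. Blue points were called lower, red points higher and grey points were not called, and dotted lines mark 1.5-fold. Of the genes drawn, 15 lipogenic and 14 cholesterol genes are blue, and 12 oxidation genes are red.

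Genes of cholesterol synthesis were lower as well. Of 20 measured enzymes 15 were lower, with a list median of -1.38 against -0.01 for all genes. The largest decrease of the list was that of Mvd, the mevalonate decarboxylase, which lay at 11.02 to 12.35 (median 11.63) fed and 7.61 to 8.53 (median 7.97) fasted (log2 fold change -3.51 ± 0.231 SE, adjusted p = 9.17e-11). Sqle, the squalene epoxidase, varied more between fasted mice, at 13.20 to 14.13 (median 13.51) fed and 9.37 to 12.06 (median 10.91) fasted (-2.69 ± 0.382 SE, adjusted p = 6e-06). Fdps (-2.52), Lss (-1.86), Pmvk (-1.81) and Fdft1 (-1.34) fell. Members that were not called included Tm7sf2 (-0.48), Ebp (-0.40), Ggps1 (0.20) and Hsd17b7 (0.34), of which the last pair had positive signs.

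The promoters of these enzymes are shown because most of the pathway fell. RefSeq start sites (build GRCm38.p6) were at hand for 15 of the 20 enzymes. The CCAAT box, the letters CCAAT on either strand, was present in the 250 bases before the start of 14 of the 15 (93.3%), compared with 34.5% of 27025 promoters of the same length. The core of the sterol regulatory element, TCACNCCAC on either strand, was present in 1 of 15, that of Hmgcs1, compared with 1.04% of all promoters. Stretches of 5 of these promoters follow, 5′ to 3′ in the direction of the gene, with the CCAAT box in capitals for Mvd, Lss, Nsdhl and Cyp51 and the TCACNCCAC match in capitals for Hmgcs1.
Mvd, chr8:122443423-122443512, minus strand: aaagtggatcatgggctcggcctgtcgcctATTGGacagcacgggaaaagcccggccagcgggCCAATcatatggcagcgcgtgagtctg
Lss, chr10:76531513-76531577, plus strand: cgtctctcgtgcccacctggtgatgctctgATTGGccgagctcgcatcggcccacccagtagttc
Nsdhl, chrX:72918382-72918520, plus strand: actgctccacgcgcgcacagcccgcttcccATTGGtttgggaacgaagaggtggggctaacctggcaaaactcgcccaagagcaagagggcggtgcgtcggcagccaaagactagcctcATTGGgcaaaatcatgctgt
Cyp51, chr5:4104698-4104756, minus strand: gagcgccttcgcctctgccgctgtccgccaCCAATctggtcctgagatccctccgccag
Hmgcs1, chr13:119690184-119690252, plus strand: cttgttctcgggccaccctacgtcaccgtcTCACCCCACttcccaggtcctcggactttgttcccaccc
A match is a description of the letters in this window and not a measured binding site. Mvd and Hmgcs1 mark the ends of the called range, at -3.51 and -0.65, and the Hmgcs1 arrays overlapped between groups and its second probe gave -0.45.

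Of 20 genes of sterol sensing, uptake and efflux, 4 rose and 3 fell. Stard4, a sterol carrier, fell by 1.48. The sterol-sensing proteins Insig1 and Insig2, which both retain SCAP and the SREBPs in the endoplasmic reticulum, moved in opposite directions. Insig1 lay at 10.32 to 11.61 (median 11.04) fed and 8.53 to 9.11 (median 8.80) fasted, and fell by 2.11 (SE 0.201, adjusted p = 2.3e-08). Insig2 lay at 13.49 to 14.16 (median 13.78) fed and 15.38 to 16.39 (median 15.73) fasted, and rose by 1.93 (SE 0.11, adjusted p = 1.32e-11). Neither pair of groups overlapped. Scap (-0.03) and Srebf2 (0.05) were not called. The biliary sterol exporters Abcg5 and Abcg8 rose by 0.63 and 1.17.

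Of 26 genes of bile acid synthesis and transport, 5 fell and 3 rose. Cyp7a1, the rate-limiting enzyme, lay at 11.13 to 12.34 (median 11.40) fed and 9.41 to 10.62 (median 10) fasted and fell by 1.40 (SE 0.353, adjusted p = 0.00258), while its second probe on the array gave -0.53 and was not called. Cyp2c70, which makes the muricholic acids of mice, lay at 15.87 to 17.17 (median 16.25) fed and 13.42 to 14.73 (median 14.14) fasted and fell by 2.08 (adjusted p = 1.95e-06). Cyp8b1, which sets the share of cholic acid, rose by 0.90. The canalicular exporters were divided, with Abcb11, the bile salt export pump, lower (-0.89) and Abcb4, which exports phosphatidylcholine, higher by 1.21. Nr0b2, the repressor SHP, fell by 1.33, with overlapping arrays.

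Genes of fatty acid oxidation rose in mitochondria, in peroxisomes and in the endoplasmic reticulum. In mitochondria 12 of 22 genes rose, with a median of 0.61, and 21 of the 22 had a positive log2 fold change. Cpt1a, which admits long-chain fatty acids to mitochondria, lay at 14.19 to 14.48 (median 14.36) fed and 15.50 to 15.69 (median 15.59) fasted, without overlap (1.27 ± 0.0675 SE, adjusted p = 4.82e-12). The largest rise was that of Slc22a5, the carnitine carrier OCTN2, at 10.33 to 10.82 (median 10.46) fed and 13.08 to 13.65 (median 13.41) fasted (2.74 ± 0.103 SE, adjusted p = 2.86e-14). The rest of the carnitine cycle rose too, with Slc25a20 at 0.97 and Cpt2 at 0.78. The medium- and long-chain dehydrogenases Acadm and Acadl rose by 1.01 and 0.85, while the short-chain enzymes Acads (0.24) and Hadh (0.33) were not called. Electrons from these dehydrogenases reach the respiratory chain through Etfdh, which rose by 0.93, whereas the flavoprotein subunits Etfa (0.10) and Etfb (0.16) were not called.

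In peroxisomes 8 of 21 genes rose. Ehhadh, the bifunctional enzyme of peroxisomal oxidation, lay at 12.74 to 13.51 (median 12.90) fed and 14.85 to 15.90 (median 15.68) fasted (2.64 ± 0.168 SE, adjusted p = 5.97e-11), and Crat, which makes acetylcarnitine for export, at 11.87 to 12.81 (median 12.17) fed and 13.53 to 14.29 (median 14.02) fasted (1.86 ± 0.136 SE, adjusted p = 4.84e-10). Both groups were apart in each case. Pex11a, which promotes peroxisome division, rose by 1.54, whereas Pex11g (-0.53) was not called.

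Omega hydroxylases of the Cyp4a family and acyl-CoA thioesterases were higher in 12 of 24 cases and lower in 2. Cyp4a10 lay at 11.47 to 13.67 (median 12.28) fed and 16.44 to 17.05 (median 16.91) fasted (4.56 ± 0.319 SE, adjusted p = 2.42e-10), and Cyp4a14 at 5.66 to 7.50 (median 6.41) fed and 11.36 to 12.35 (median 11.87) fasted (5.49 ± 0.305 SE, adjusted p = 8.8e-12). Both sets of arrays were well apart. Cyp4a31 rose by 4.11, but Cyp4a12a and Cyp4a12b of the same family were not called (0.12 and -0.02). Thioesterases, which release fatty acids from coenzyme A, rose where they belong to the clustered Acot1 to Acot5 genes, by 3.21, 3.48, 3.13, 1.61 and 3.67 in that order. Acot11, a thioesterase of another subfamily, fell by 1.89, and Acot7, Acot9, Acot10 and Acot13 were not called. Members of these families are close in sequence, so probes may pick up more than 1 of them.

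Of 9 ketone body genes 3 rose and 2 fell. Acat1 and the monocarboxylate carriers Slc16a1 and Slc16a7 rose by 0.63, 0.70 and 0.60 (other probes of Slc16a7 -0.12 to 1.33), and these 3 calls became 1 without LWT_Fasted replicate 3. Bdh2, a cytosolic hydroxybutyrate dehydrogenase, lay at 11.82 to 12.37 (median 12.12) fed and 10.69 to 11.73 (median 10.96) fasted and fell by 1.06 (adjusted p = 3.78e-06), and Slc16a6 fell by 0.71.

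Of 20 PPAR and PGC-1 regulators, 3 rose and 1 fell. Ppara lay at 14.25 to 14.54 (median 14.45) fed and 15.29 to 15.48 (median 15.38) fasted, with a rise of 0.89 (SE 0.0577, adjusted p = 7.43e-11), and the co-activators Ppargc1a and Ppargc1b rose by 0.98 and 1.11. Ppard fell by 0.94, and Pparg (-0.52), Rxra (0.07) and Creb3l3 (0.58) were not called. The coenzyme A needed for acyl activation is made by pantothenate kinases and degraded by nudix hydrolases. Vnn1, a pantetheinase that recovers pantothenate, lay at 9.13 to 11.37 (median 10.54) fed and 11.82 to 12.78 (median 12.54) fasted and rose by 2.02 (adjusted p = 1.69e-05). Nudt7, the peroxisomal coenzyme A hydrolase, lay at 16.80 to 17.27 (median 16.96) fed and 14.53 to 15.58 (median 14.93) fasted and fell by 1.91 (adjusted p = 1.04e-08), whereas Nudt19 (-0.03) and Nudt8 (-0.13) were not called. Of the kinases only Pank3 was called (0.64), with Pank1 at 0.53.

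Of 21 genes of fatty acid uptake and activation, 5 rose and 2 fell. Cd36, a fatty acid translocase, was not called (-0.12, adjusted p = 0.779). Acsl1, the main liver acyl-CoA synthetase, rose by 0.93, whereas its relative Acsl3 lay at 8.62 to 9.30 (median 9.19) fed and 7.53 to 8.32 (median 7.77) fasted and fell by 1.27 (adjusted p = 3.15e-08). Fabp5, a fatty acid binding protein, lay at 13.79 to 15.55 (median 15.27) fed and 10.95 to 13.08 (median 12.14) fasted and fell by 2.91, while Fabp1, the main binding protein of liver, was not called (-0.06). Of 18 apolipoproteins and remodelling factors, 2 rose and 2 fell. Apoa4, a component of chylomicrons and high-density lipoprotein, lay at 14.70 to 15.66 (median 15.36) fed and 15.77 to 16.89 (median 16.35) fasted and rose by 1.05 (adjusted p = 8.28e-07), and Apol9a fell by 0.92 (adjusted p = 8.39e-05).

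**Figure D3:**
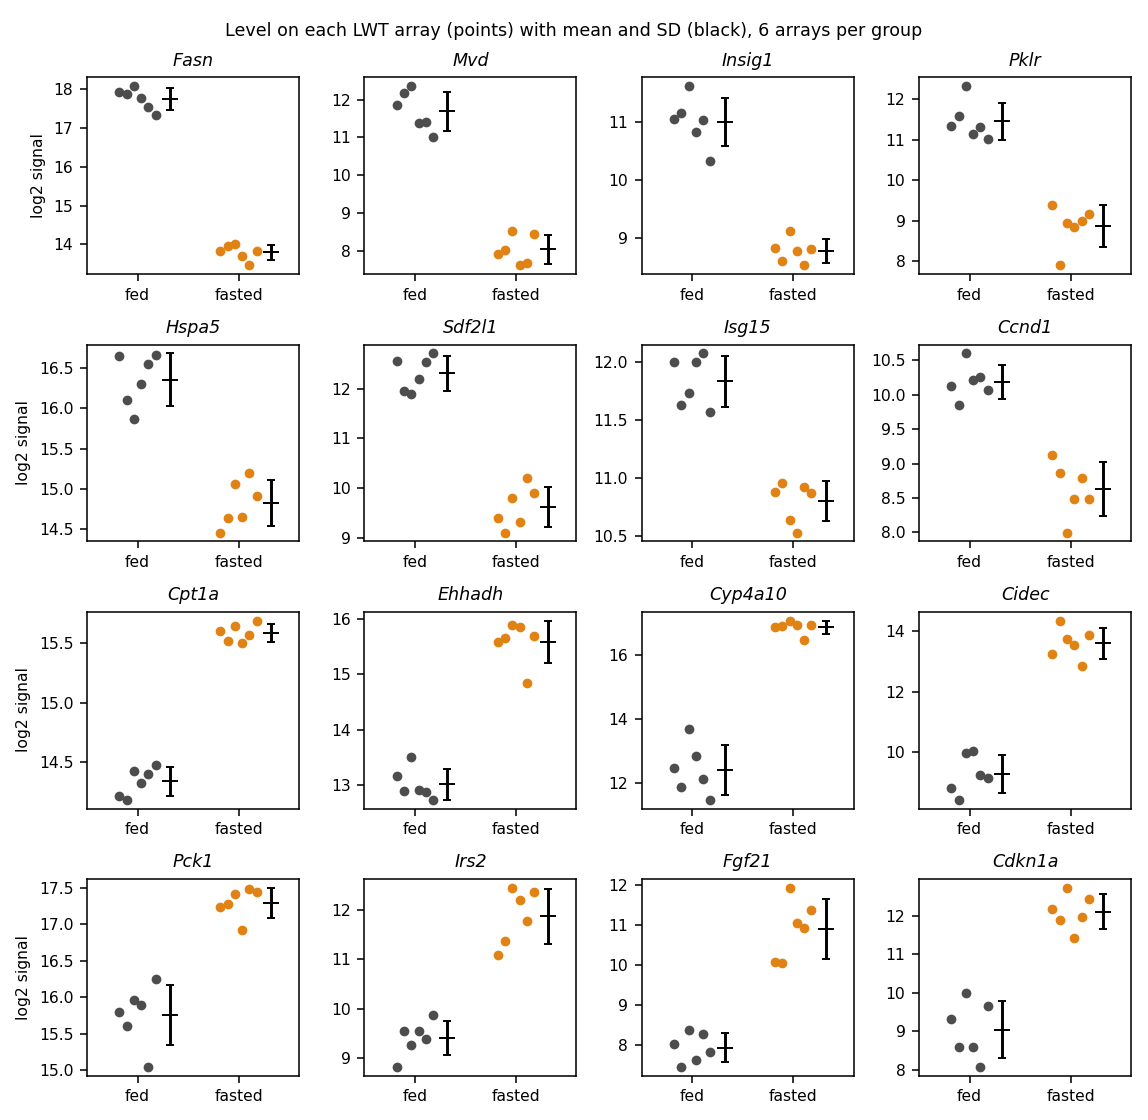
Normalized log2 signal of 16 genes on each LWT array, fed (grey) and fasted (orange), with the group mean and SD in black, n = 6 per group; each panel has its own axis. The 6 fasted points lie apart from the 6 fed points in every panel, below them for the first 8 genes and above them for the last 8.

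Glucose genes gave a split picture, with the glucose-using side lower and few gluconeogenic enzymes higher. Of 24 genes of glycolysis and fructose use, 10 fell and 1 rose, with a median of -0.37. Pklr, the liver pyruvate kinase, lay at 11.03 to 12.32 (median 11.33) fed and 7.89 to 9.38 (median 8.97) fasted (-2.33 ± 0.168 SE, adjusted p = 3.87e-10). The fructose enzymes Khk and Tkfc fell (-1.0 and -1.42), as did the glucose carrier Slc2a2 (-1.05). Enzymes of the shared middle segment were not called, among them Gapdh (-0.31), Pgk1 (-0.24) and Eno1 (-0.43). The bifunctional enzymes that set fructose-2,6-bisphosphate divided, with Pfkfb3 lower (-0.94) and Pfkfb2 higher by 0.95. Other probes gave -0.40 for Tkfc and 0.15 to 0.73 for Pfkfb2.

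Of 16 genes of gluconeogenesis, 4 rose. Pck1, which makes phosphoenolpyruvate, lay at 15.05 to 16.26 (median 15.85) fed and 16.92 to 17.49 (median 17.34) fasted (1.6 ± 0.187 SE, adjusted p = 4.46e-07). Got1, the cytosolic aspartate aminotransferase, lay at 13.49 to 14.34 (median 13.88) fed and 15.39 to 16.30 (median 15.99) fasted (2.03 ± 0.178 SE, adjusted p = 6.93e-09). Neither gene's groups overlapped. Gyk, the glycerol kinase, rose by 1.23, and G6pc, the last step of the pathway, by 0.69 with overlapping arrays. Pcx (0.44) and Fbp1 (-0.21) were not called. Of 23 glycogen genes, 3 fell and 1 rose. Pygl, the glycogen phosphorylase, lay at 15.70 to 15.94 (median 15.87) fed and 14.26 to 14.78 (median 14.59) fasted and fell by 1.25 (SE 0.0662, adjusted p = 4.28e-12), while the synthase Gys2 was not called (0.04). Ppp1r3g, a glycogen-targeting subunit of protein phosphatase 1, lay at 6.92 to 7.89 (median 7.79) fed and 9.74 to 11.07 (median 10.87) fasted and rose by 2.95 (adjusted p = 7.57e-08). The other targeting subunits Ppp1r3b, Ppp1r3c, Ppp1r3d and Ppp1r3e were not called, at 0.19, -0.43, -0.08 and -0.29.

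At pyruvate dehydrogenase, Pdk4, the kinase that switches the complex off, lay at 9.13 to 10 (median 9.55) fed and 10.91 to 13.24 (median 11.86) fasted (2.64 ± 0.313 SE, adjusted p = 5.33e-07). The opposing phosphatase Pdp2 also rose, by 0.82, Pdk1 fell by 0.66 (other probes -0.78 to -0.14), and Pdk2 was not called (0.08). The tricarboxylic acid cycle and the respiratory chain stayed largely level. Of 17 cycle genes 1 rose, Fh1, the fumarase, at 0.62, which became 0.58 without LWT_Fasted replicate 2 and then fell short of 1.5-fold. Citrate synthase, Cs, stood at -0.40 (adjusted p = 0.000619). Of 85 genes named as respiratory chain subunits or assembly factors, 1 rose and 2 fell, a share below that of all genes, and the range ran from -0.70 to 0.62. Of these 85 values 70 were negative, with a median of -0.08. Ndufs1, the largest complex I subunit, was level at -0.01 (adjusted p = 0.898). The members called were Ndufaf5, an assembly factor (-0.70, second probe -0.29), Ndufa4l2 (-0.59) and Cox6b2, a testis isoform (0.62), of which Cox6b2 dropped below the threshold without LWT_Fed replicate 1 (0.53) or LWT_Fasted replicate 3 (0.57).

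Of 56 genes of amino acid breakdown, 7 rose and 2 fell. Aass, the first enzyme of lysine breakdown, lay at 14.63 to 14.94 (median 14.69) fed and 16.05 to 16.52 (median 16.32) fasted (1.54 ± 0.103 SE, adjusted p = 1.23e-10). Got1 was the largest rise of this list too, Sds and Sdsl, which deaminate serine and threonine, rose by 1.46 and 1.08, and Tdo2, which opens the tryptophan ring, by 1.16. Tat, the tyrosine aminotransferase, was not called (0.41, adjusted p = 0.0914), and reached 0.61, past the threshold, without LWT_Fasted replicate 4. The second probe of Sds gave 0.30. Of the 11 urea cycle genes none was called by limma, although 7 had an unadjusted p under 0.05. Cps1, the entry enzyme, lay at 15.12 to 15.87 (median 15.59) fed and 15.15 to 15.88 (median 15.52) fasted (0.17, adjusted p = 0.292), and the members ran from -0.44 to 0.56. A member was called higher without LWT_Fasted replicate 6 or without LWT_Fed replicate 1, 4 or 5.

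Amino acid carriers moved in both directions, with 4 of 28 higher and 3 lower. Slc7a2, a carrier of arginine and lysine, lay at 9.81 to 10.24 (median 10.11) fed and 11.13 to 11.80 (median 11.32) fasted and rose by 1.18 (adjusted p = 8.71e-09). Slc36a1, a proton-coupled lysosomal carrier, lay at 9.12 to 9.31 (median 9.19) fed and 7.47 to 8.27 (median 7.91) fasted and fell by 1.30 (adjusted p = 5.48e-10), with a second probe at -0.04. In one-carbon metabolism 4 of 29 genes rose and 2 fell. Slc19a1, the folate carrier, rose by 1.23 and Mat1a, the liver's methionine adenosyltransferase, by 1.13. The second probe of Slc19a1 gave 0.09 and was not called. The creatine enzymes Gatm and Gamt fell (-0.93 and -0.71). Gnmt, which uses up surplus methyl groups, was not called (-0.18). In nucleotide metabolism 4 of 34 genes fell and 1 rose. Both multifunctional enzymes of pyrimidine synthesis were lower, Cad (-1.45, second probe -0.14) and Umps (-1.21), and Tymp, which breaks thymidine down, lay at 12.24 to 12.52 (median 12.35) fed and 13.28 to 13.99 (median 13.69) fasted and rose by 1.34 (adjusted p = 9.7e-07).

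In phospholipid metabolism 3 of 21 genes rose. Gpcpd1, which hydrolyses glycerophosphocholine, lay at 9.70 to 10.22 (median 10.04) fed and 11.74 to 13.14 (median 12.69) fasted and rose by 2.46 (adjusted p = 4.51e-10). Chkb and Chpt1 of the phosphatidylcholine pathway rose by 1.14 and 0.71 (second probe of Chpt1 0.38), and Chka was not called (-0.42, adjusted p = 0.0529). In NAD metabolism, Nnmt, which methylates nicotinamide, rose by 1.16 and Nmrk1, a riboside kinase, by 0.86, with other probes at -0.17 to 0.61. Nampt, the salvage enzyme, was not called (0.31, adjusted p = 0.014).

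Of 33 genes of insulin signalling, 2 rose and 1 fell, 9.09% of the list against 9.95% of all genes. Irs2, the insulin receptor substrate, lay at 8.82 to 9.87 (median 9.46) fed and 11.09 to 12.45 (median 11.98) fasted, without overlap (2.61 ± 0.199 SE, adjusted p = 8.79e-10). Irs1 was not called (0.23), nor was the receptor Insr (0.51, adjusted p = 1.4e-05). Foxo1 rose by 0.71, Pik3r3, a regulatory subunit of phosphoinositide 3-kinase, fell by 0.85, and the kinases Akt1 (-0.17) and Akt2 (-0.13) were not called. Of 25 genes induced by FOXO1 or repressed by insulin, 11 rose and 2 fell, with a median of 0.50. Igfbp1, a hepatic IGF-binding protein, lay at 12.97 to 14.40 (median 13.66) fed and 14.79 to 16.44 (median 15.33) fasted (1.98 ± 0.297 SE, adjusted p = 1.15e-05). Others that rose were Txnip, which lowers glucose uptake, by 1.89 and Ccng2, an atypical cyclin, by 1.45. Bcl6, a repressor of lipid genes, ran against the list with a log2 fold change of -1.75, overlapping arrays and a second probe at -1.14 that was not called. Trib1 (0.38) and Sesn1 (-0.05) were not called.

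Other hormone pathways were sampled in the same way. Of 21 genes of the glucocorticoid receptor and its targets, 11 rose and 2 fell, with a median of 0.69. Fkbp5, a chaperone of the receptor and a standard target of it, lay at 11.19 to 11.67 (median 11.48) fed and 13.29 to 13.87 (median 13.72) fasted (2.12 ± 0.124 SE, adjusted p = 1.82e-11). Zbtb16 rose by 2.11 and Cebpd by 1.02, while Tsc22d3, another target of the receptor, fell by 0.62 (second probe -0.53) with overlapping arrays and Nr3c1, the receptor, was not called (-0.19). The metallothioneins Mt1 and Mt2, which bind zinc and copper, had the largest rises of this list. Mt1 lay at 11.81 to 13.70 (median 12.36) fed and 16.72 to 17.60 (median 17.08) fasted (4.78 ± 0.277 SE, adjusted p = 1.62e-11). Mt2 lay at 9.98 to 13.67 (median 10.43) fed and 16.39 to 17.23 (median 16.99) fasted (6.4 ± 0.398 SE, adjusted p = 4.03e-11). The highest fed value of Mt2 belonged to LWT_Fed replicate 3, and without that array the change was 6.56. Zinc carriers did not follow, with Slc39a10 lower (-0.92, second probe -0.40), Slc30a10 lower (-0.62) and Slc30a1 at 0.25.

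On the glucagon side 4 of 26 genes rose, at most by 0.77 for Adcy6, an adenylate cyclase, and the receptor Gcgr was level at -0.00. Sik3 and Crtc2 rose by 0.75 and 0.71, while Sik3's second probe gave 0.53, that of Crtc2 0.41 and that of Adcy6 0.22. With the mean over probes of each gene, 1 of the 4 calls was left. In the IGF axis 4 of 20 genes rose. The count of lower genes was 0, and reached 2 with some single arrays left out and with the processed signal. Igf1 on its brightest probe was level at 0.05 (adjusted p = 0.565), whereas its other probes gave 0.88 to 1.20. Socs2, Cish and Socs3, feedback inhibitors of cytokine receptors, had log2 fold changes of 1.49, 1.27 and 1.67, of which Cish was not called (adjusted p = 0.0719). The Socs2 arrays overlapped and its other probes gave 0.07 to 1.23. Of 13 Kruppel-like factors 3 rose, Klf9 by 1.18, Klf11 by 1.03 and Klf10 by 0.92, the last with overlapping arrays.

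Secreted signals were prominent, with 9 of 29 higher and 4 lower. Fgf21, the fasting hormone of the liver, lay at 7.45 to 8.38 (median 7.92) fed and 10.04 to 11.94 (median 10.99) fasted (3.17 ± 0.234 SE, adjusted p = 5.16e-10). Angptl4, an inhibitor of lipoprotein lipase, rose by 2.13, and Gm6484, the array's name for Angptl8, a feeding-induced partner of this family, lay at 14.36 to 16.42 (median 14.99) fed and 11.66 to 13.16 (median 12.38) fasted and fell by 2.76 (adjusted p = 6.59e-10). Activin subunits divided, with Inhbb and Inhbe higher by 0.99 and 1.06 and Inhba lower (-1.77). Leap2, which blocks the ghrelin receptor, fell by 1.05. Nrg4 rose by 1.21 (other probes 0.57 to 1.75), and Gdf15 rose by 0.80 with overlapping arrays. Among 33 receptors 4 rose and 4 fell. Those for interleukins led, with Il1r1 at 9.76 to 10.53 (median 10.30) fed and 11.48 to 12.19 (median 11.86) fasted (1.62 ± 0.166 SE, adjusted p = 7.38e-08) and Il6ra at 1.22, while Egfr, Fgfr3, Adra1b and Tgfbr2 fell (-0.70, -0.81, -0.82 and -0.66). Arrays overlapped for Egfr and Tgfbr2, and other probes gave -0.60 to 0.43 for Egfr and -0.47 for Fgfr3. Lepr was not called on its brightest probe (0.50), and its other probes gave 0.29 to 1.89. It was called on the brightest probe without LWT_Fasted replicate 1 (0.63), 4 (0.61) or 5 (0.63).

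All mice were killed at the same Zeitgeber time, and clock genes were measured at that time alone. Of 23 genes 5 rose and 3 fell. Arntl, the core activator BMAL1, was not called (0.36, adjusted p = 0.0275). Per2 lay at 11.51 to 12.49 (median 11.89) fed and 10.47 to 10.94 (median 10.79) fasted and fell by 1.28 (SE 0.123, adjusted p = 2.92e-08), with a second probe at -0.20. Bhlhe40, a repressor, lay at 11.75 to 12.57 (median 12.29) fed and 10.54 to 11.19 (median 10.91) fasted and fell by 1.27 (adjusted p = 1.67e-07). Per1, by contrast, rose by 0.73 with overlapping arrays, and Nr1d1 and Nr1d2, the REV-ERB repressors, rose by 0.82 and 0.68. Dbp, an output gene, was not called (0.01). Of 26 nuclear receptors 4 rose and 4 fell. The xenobiotic sensors Nr1i2 (PXR) and Nr1i3 (CAR) rose by 0.98 and 0.68, and Rarb, Nr3c2 and Esr1 fell (-1.30, -1.06 and -0.91), with other probes at -0.50 to -0.22 for Nr3c2 and -1.03 to -0.24 for Esr1.

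Genes of the endoplasmic reticulum's folding machinery fell together. Of 38 chaperones, disulphide isomerases, translocon subunits and degradation factors, 23 were lower, 60.5% of the list against 5.19% of all genes. The list median was -0.80 and 35 of 38 values were negative. Hspa5 (BiP), the main chaperone of this compartment, lay at 15.87 to 16.66 (median 16.43) fed and 14.46 to 15.20 (median 14.78) fasted, without overlap (-1.59 ± 0.154 SE, adjusted p = 3.15e-08). Sdf2l1, a partner of BiP, lay at 11.90 to 12.71 (median 12.37) fed and 9.10 to 10.20 (median 9.60) fasted (-2.69 ± 0.193 SE, adjusted p = 3.65e-10), and Manf, which is secreted on ER stress, at 12.85 to 13.95 (median 13.58) fed and 10.62 to 11.56 (median 11.06) fasted (-2.46 ± 0.196 SE, adjusted p = 1.67e-09). For Sdf2l1 and Manf the gap between the groups was larger than the range within either group, and for Hspa5 it was smaller. Creld2 (-1.83), Hyou1 (-1.42), Calr (-1.22), Pdia4 (-1.1) and Hsp90b1 (-0.84) also fell. Among degradation factors, Syvn1 (-1.15), Edem1 (-0.86) and Sel1l (-0.81) fell on their brightest probes, and Herpud1 (0.17) and Derl1 (-0.25) were not called. Of the sensors of unfolded protein, Ern1, which encodes IRE1, and its target Xbp1 fell (-0.71 and -0.83), while Atf6 was not called (0.33). Dnajb9 (-0.41) was not called either. Other probes, none of them called, gave smaller decreases for Ern1 (-0.49 to -0.22), Sel1l (-0.39 to -0.19) and Edem1 (-0.51), and for Hyou1 1 of 3 was not called (-1.29 to -0.43). When any 1 array was left out, 22 to 24 members were called lower, and 19 were with the mean over probes of each gene.

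The promoters of this list are shown because many of them share a sequence element. The list was drawn up by function, but with earlier results of these data known. The ER stress element is CCAAT, 9 bases of any kind, and CCACG, and is known to bind NF-Y and ATF6. RefSeq start sites were at hand for 29 of the 38 genes. In the 250 bases before the start, on either strand, 9 of 29 (31.0%) held the element, compared with 33 of 27025 promoters (0.122%). Of the 9 holders 7 were called lower, with a median of -1.15, and of the other 20 genes 12 were called lower, with a median of -0.72, a difference that was not tested. The CCAAT box alone, which is part of the element, was present in 21 of 29 (72.4%). The element is in capitals in these stretches, 5′ to 3′ in the direction of the gene.
Hspa5, chr2:34771995-34772073, plus strand: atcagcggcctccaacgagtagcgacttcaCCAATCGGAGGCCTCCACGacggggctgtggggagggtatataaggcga
Calr, chr8:84847045-84847123, minus strand: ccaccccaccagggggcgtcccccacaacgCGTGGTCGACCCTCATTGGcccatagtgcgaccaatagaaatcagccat
Pdia6, chr12:17266461-17266539, plus strand: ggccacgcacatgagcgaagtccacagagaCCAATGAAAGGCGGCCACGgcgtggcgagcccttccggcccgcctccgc
Creld2, chr15:88819490-88819568, plus strand: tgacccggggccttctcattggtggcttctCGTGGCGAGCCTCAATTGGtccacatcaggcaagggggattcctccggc
Derl3, chr10:75893212-75893290, plus strand: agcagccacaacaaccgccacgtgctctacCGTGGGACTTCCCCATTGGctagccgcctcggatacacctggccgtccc
Hsp90b1, chr10:86705503-86705662, minus strand: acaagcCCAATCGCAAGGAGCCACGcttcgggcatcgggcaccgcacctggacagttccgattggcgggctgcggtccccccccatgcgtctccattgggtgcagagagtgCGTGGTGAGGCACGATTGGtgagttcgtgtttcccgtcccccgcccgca
Syvn1, chr19:6046502-6046575, plus strand: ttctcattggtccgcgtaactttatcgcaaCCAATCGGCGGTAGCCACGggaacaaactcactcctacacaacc
Hsp90b1 has the element on both strands, and in Calr, Creld2 and Derl3 it reads on the opposite strand to the gene. The holders that were not called lower were Canx (-0.28) and Dnajc3 (-0.35).

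Cytosolic heat shock proteins gave a smaller shift, with 5 of 23 lower and 1 higher and a median of -0.27. Hspa8, the constitutive member, was level (-0.03). Hspa4l lay at 10.97 to 11.37 (median 11.18) fed and 10.09 to 10.46 (median 10.26) fasted and fell by 0.94 (adjusted p = 5.1e-08), and Fkbp4, Stip1 and Hsp90aa1, which assemble the HSP90 complex, fell (-0.88, -0.74 and -0.72). Other probes gave -0.92 to -0.15 for Hspa4l and -0.14 for Stip1. Genes of the amino acid response did not move as a list. Of 32, 5 rose and 2 fell, with a median of 0.01. Asns, the asparagine synthetase, varied widely at 7.78 to 9.69 (median 8.92) fed and 7.65 to 11.12 (median 9.20) fasted (0.33, adjusted p = 0.63), Trib3 rose by 1.22 and Wars, a tRNA synthetase, fell by 0.96, while Atf4 (-0.28) and Ddit3 (0.07) were not called.

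Protein synthesis genes were nearly level. None of 77 cytosolic ribosomal protein genes was called by limma, although 42 had an unadjusted p under 0.05 and 73 of the 77 values were negative. Their range was -0.43 to 0.14 and their median -0.10, and Rpl13a stood at -0.05. Of 42 genes of ribosome biogenesis 1 was called, Polr1e at -0.61, which lost the call without LWT_Fasted replicate 1 or 4 (-0.53 in both). Of 63 translation factors 2 rose and 1 fell. Eef2k, the kinase that inhibits elongation, lay at 8.75 to 9.19 (median 9.0) fed and 7.11 to 7.55 (median 7.36) fasted and fell by 1.67 (adjusted p = 2.33e-11), Eif4ebp3 rose by 1.36 with overlapping arrays and Eif4b by 0.65 with a second probe at 0.46. Of 33 autophagy genes 4 rose, 12.1% of the list against 4.77% of all genes called higher. These were Gabarapl1 by 0.84, Atg2a by 0.77, Map1lc3b by 0.63 (other probes 0.41 to 0.63) and Bnip3 by 0.60. Without LWT_Fasted replicate 3, 2 of these calls were left. Ulk1, the initiating kinase, was not called (0.40, adjusted p = 0.00169). Of 33 lysosomal genes the 3 that rose (9.09%) were Fnip1 (1.05), Flcn (0.62) and Npc1 (0.75, other probes 0.26 to 0.39), while Tfeb was not called (0.33).

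Many cell cycle genes were lower. Of 42 genes of the cell cycle and DNA replication, 16 fell and 2 rose, with a median of -0.39. Ccnd1, the cyclin that responds to growth signals, lay at 9.85 to 10.60 (median 10.17) fed and 8.0 to 9.13 (median 8.64) fasted, with no overlap (-1.58 ± 0.189 SE, adjusted p = 5.71e-07), and Ccnd2 fell by 1.1 while Ccnd3 was not called (0.15). The replicative helicase fell in 5 of 6 subunits, at -0.87 for Mcm2, -0.96 for Mcm3, -0.68 for Mcm4, -1.21 for Mcm5 and -1.18 for Mcm6, and Mcm7 was at 0.17, with overlapping arrays for Mcm4. Mitotic genes at low levels, such as Mki67 and Top2a, fell (-0.60 and -0.70) with overlapping arrays, and the second probe of Top2a gave -0.42. The E2F family divided. E2f2, an activator, lay at 8.2 to 8.59 (median 8.42) fed and 6.23 to 7.19 (median 6.91) fasted and fell by 1.67 (adjusted p = 1.55e-08). E2f8, a repressor that liver cells use in polyploidy, lay at 8.16 to 9.57 (median 8.59) fed and 10.21 to 11.26 (median 10.75) fasted and rose by 2.01 (adjusted p = 2.76e-07), and its 2 other probes gave 0.12 to 1.57.

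Cdkn1a, the inhibitor p21, lay at 8.08 to 10.01 (median 8.96) fed and 11.44 to 12.74 (median 12.08) fasted, with no overlap (3.26 ± 0.291 SE, adjusted p = 9.58e-09). Gadd45g, a stress-inducible growth arrest gene, lay at 11.13 to 12.00 (median 11.72) fed and 12.41 to 15.29 (median 14.93) fasted, where 1 fasted mouse stood well below the others (3.01 ± 0.296 SE, adjusted p = 3.84e-08). Gadd45b rose by 1.97 and Gadd45a fell by 1.47, so that this family of 3 did not move as one. Of other targets of p53, Mdm2 (0.23), Ccng1 (-0.45) and Bax (-0.41) were not called and Bbc3 fell (-0.83). In all 5 of 27 genes of this list rose and 2 fell. Myc, which promotes growth, rose by 1.59 with overlapping arrays.

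Interferon-stimulated genes were lower in fasted livers. Of 39 genes, 18 fell, 46.2% against 5.19% of all genes, with a median of -0.52 and 37 negative values. Isg15, a ubiquitin-like modifier, lay at 11.57 to 12.07 (median 11.86) fed and 10.53 to 10.96 (median 10.88) fasted, with no overlap (-1.11 ± 0.114 SE, adjusted p = 7.88e-08). Oasl1, which restrains translation of Irf7, lay at 11.77 to 12.29 (median 11.97) fed and 9.85 to 10.63 (median 10.23) fasted (-1.75 ± 0.139 SE, adjusted p = 1.55e-09). Ifi47, an interferon-inducible GTPase, lay at 10.93 to 11.81 (median 11.41) fed and 9.54 to 10.16 (median 9.91) fasted (-1.56 ± 0.142 SE, adjusted p = 1.25e-08). The viral RNA sensors Ddx58 (RIG-I) and Ifih1 (MDA5) fell (-1.28 and -0.78), as did the chemokines Cxcl9 (-1.18) and Cxcl10 (-1.11). The GTPases Igtp and Irgm1 fell (-0.96 and -0.84). Other probes gave -0.82 to -0.52 for Ddx58, -0.24 for Ifih1 and -0.80 to -0.25 for Irgm1. Irf7 (-0.14), Irf9 (-0.21), Oas2 (-0.08) and Usp18 (0.03) were not called, so the list did not move evenly.

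Markers of Kupffer cells and macrophages, cells that also express many of these genes, were lower in part. Of 16 markers 4 fell and 1 rose, with a median of -0.48. Their mean log2 level was 11.36 to 11.71 on the fed arrays and 10.65 to 11.86 on the fasted arrays, which overlap, while the mean level of the interferon list was 10.03 to 10.35 fed and 9.48 to 9.89 fasted, which do not. LWT_Fasted replicate 3 was the lowest array in both lists (10.65 and 9.48), as it was for endothelial markers (9.80, against 10.25 to 10.74 on the other fasted arrays) and antigen presentation (11.69), and LWT_Fasted replicate 2 was the highest fasted array in both (11.86 and 9.89). Clec4f, a defining marker, stood at -0.32 (adjusted p = 0.0552), Adgre1 at -0.54 (adjusted p = 0.125), and Folr2 and Lyz2 fell (-0.87 and -0.83) with overlapping arrays. Cd163, the haemoglobin scavenger receptor, rose by 0.85 (adjusted p = 0.000232), with a second probe at 0.35. The count of 4 varied from 2 to 7 as single arrays were left out, with 7 without LWT_Fasted replicate 1 or LWT_Fed replicate 5 and 2 without LWT_Fasted replicate 3 or 6 or LWT_Fed replicate 1 or 2. The count of 18 interferon-stimulated genes varied from 17 to 19. The part of these cells in the interferon result was not tested.

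**Figure D4:**
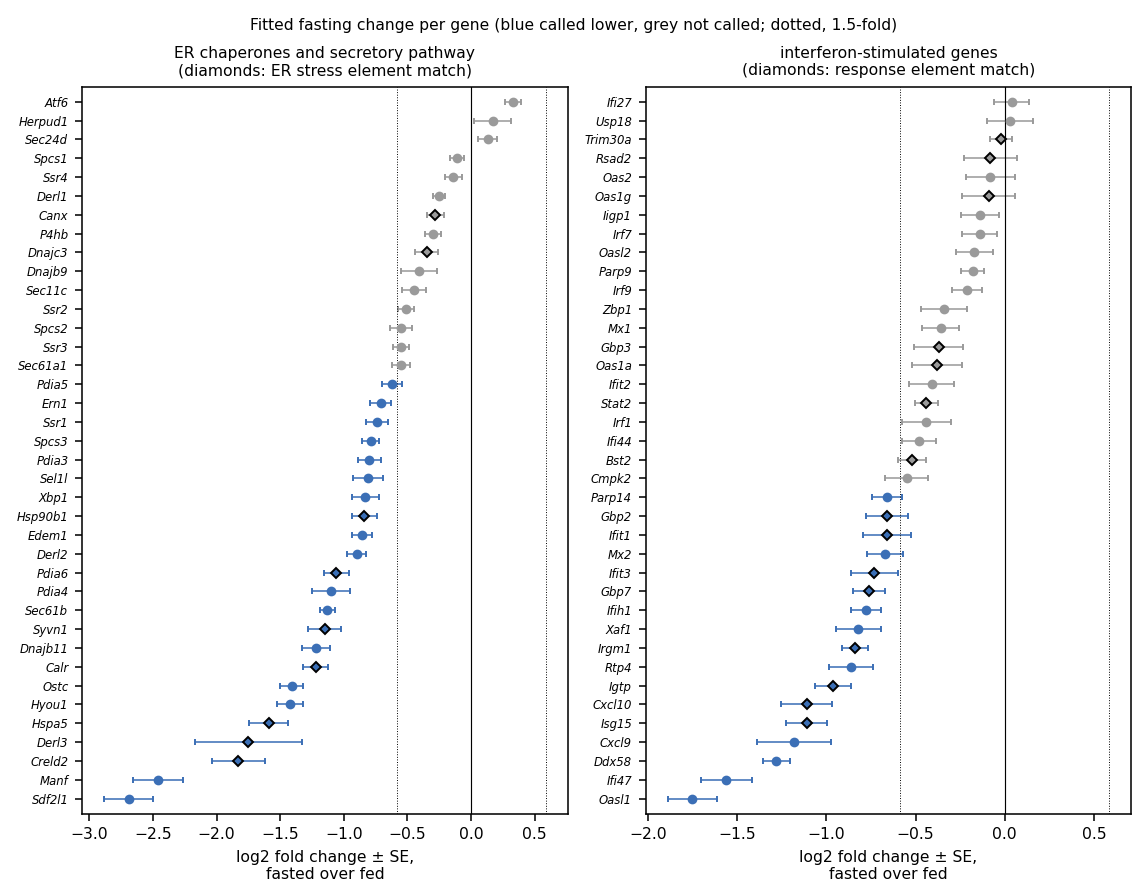
Fitted log2 fold change (fasted over fed) with its standard error for 38 genes of ER chaperones and the secretory pathway (left) and 38 interferon-stimulated genes (right) in LWT livers, 6 arrays per group. Blue points were called lower, grey points were not called, and diamonds mark genes with the ER stress element (9 genes) or the interferon-stimulated response element (15 genes) in the 250 bases before the start site. Most points lie left of 0 in both panels, with 23 and 17 past the dotted line of 1.5-fold.

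Start sites were at hand for 28 of the 39 interferon-stimulated genes. The interferon-stimulated response element, searched on both strands as GAAA, any 2 bases and GAAA, lay in the 250 bases before the start of 15 of these 28 (53.6%), compared with 3.04% of 27025 promoters. Of the 15 holders 8 were called lower, with a median of -0.66, and of the other 13 genes 6 were called lower, with a median of -0.55, a difference that was not tested. The stretches show the element in capitals, where overlapping matches run together, in genes that fell.
Isg15, chr4:156200845-156200926, minus strand: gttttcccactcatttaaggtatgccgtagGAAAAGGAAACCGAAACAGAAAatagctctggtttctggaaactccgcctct
Ifit1, chr19:34640755-34640843, plus strand: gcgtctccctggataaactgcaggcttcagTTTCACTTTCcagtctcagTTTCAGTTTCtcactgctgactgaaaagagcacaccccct
Ifit3, chr19:34583343-34583446, plus strand: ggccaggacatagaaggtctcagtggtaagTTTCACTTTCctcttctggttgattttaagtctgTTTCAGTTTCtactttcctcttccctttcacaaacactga
Cxcl10, chr5:92349063-92349132, minus strand: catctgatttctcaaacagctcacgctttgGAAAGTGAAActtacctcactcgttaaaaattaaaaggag
Igtp, chr11:58199492-58199555, plus strand: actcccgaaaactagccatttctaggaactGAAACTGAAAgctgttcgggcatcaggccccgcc
Irgm1, chr11:48871421-48871480, minus strand: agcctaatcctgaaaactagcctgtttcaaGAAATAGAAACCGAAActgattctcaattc
Among these, Isg15 has 3 matches, and Ifit1, Ifit3 and Irgm1 have 2 each.

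In antigen presentation 3 of 21 genes were lower. Psmb9 and Psmb10, catalytic subunits of the immunoproteasome, fell (-1.46 and -0.69), whereas Psmb8 was not called (-0.50). Psmb9 lay at 11.65 to 12.12 (median 11.85) fed and 9.99 to 10.85 (median 10.41) fasted (SE 0.118, adjusted p = 2.07e-09). Class I heavy chains H2-K1 (-0.07) and H2-D1 (0.05) were level, and the class II gene H2-Aa was not called (-0.54, adjusted p = 0.0251) except without LWT_Fasted replicate 1 or 4 or LWT_Fed replicate 2 or 5 (-0.69 to -0.59). The count rose to 7 without LWT_Fed replicate 2, to 6 without LWT_Fasted replicate 1 or 4, and to 5 without LWT_Fed replicate 5. Of 46 genes of the proteasome and ubiquitin system 2 rose and 3 fell, 10.9% of the list against 9.95% of all genes. Psma1 of the core particle stood at -0.07, and Psme3, a nuclear activator, rose by 1.03 with a second probe at -0.24.

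Acute phase genes, which hepatocytes make on inflammation, gave 7 of 31 higher and 2 lower, with 1 lower without LWT_Fasted replicate 3 or 6. LWT_Fed replicate 3 stood apart on this list, with a mean log2 level of 14.04 against 13.16 to 13.32 on the other fed arrays and 13.46 to 13.68 on the fasted arrays, and 8 genes rose without it. Lbp, which binds lipopolysaccharide, lay at 10.87 to 11.64 (median 11.07) fed and 12.53 to 12.79 (median 12.73) fasted, with no overlap (1.63 ± 0.0986 SE, adjusted p = 2.88e-11), and Socs3, a feedback inhibitor of interleukin-6 signalling, at 9.29 to 9.86 (median 9.43) fed and 10.38 to 11.64 (median 11.24) fasted (1.67 ± 0.205 SE, adjusted p = 8.73e-07). Saa1, serum amyloid A, lay at 13.46 to 17.85 (median 13.96) fed and 13.18 to 14.84 (median 13.61) fasted and was not called (adjusted p = 0.802), and its highest value belonged to LWT_Fed replicate 3. Orm1 and Orm2 had values of -0.58 and -0.62, of which Orm2 was called lower, and Fgb (0.02) and Hp (0.28) were not called. Of 36 coagulation and complement genes none was called by limma, with 13 at an unadjusted p under 0.05, a range of -0.51 to 0.52 and C3 at 0.17. A member of that list was called lower without LWT_Fasted replicate 1.

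Detoxification genes moved singly. Of 50 cytochrome P450 genes of families 1 to 3, 3 rose and 5 fell, 16% of the list against 9.95% of all genes. Among those that fell, Cyp2c55 lay at 8.52 to 9.51 (median 8.94) fed and 6.86 to 7.95 (median 7.53) fasted and fell by 1.47 (adjusted p = 1.04e-07). Cyp2b10, a target of CAR, varied between mice at 7.52 to 10.28 (median 9.06) fed and 7.08 to 10.49 (median 9.07) fasted and was not called (0.17, adjusted p = 0.837). Of 45 phase II enzymes 5 fell and 2 rose (15.6%), with 32 negative values, and the count of 5 was 2 without LWT_Fasted replicate 6. Sult1c2 and Sult4a1 fell (-0.90 and -0.74). Sult1e1, the oestrogen sulphotransferase, rose by 0.69 (adjusted p = 0.0229) with overlapping arrays, and lost the call without LWT_Fasted replicate 3 (0.36) or 6 (0.47) and without LWT_Fed replicate 1, 4 or 5 (0.58 to 0.62). Of 29 NRF2 targets and antioxidant genes, Osgin1 alone was called (-0.78, with overlapping arrays, and not in 7 of the 12 fits without 1 array), and Nqo1 stood at -0.19. Organic ion carriers of the Slc22 family parted, with Slc22a30, Slc22a28 and Slc22a7 lower (-1.39, -1.27 and -1.25) and Slc22a5 higher, as given above. The Slc22a7 arrays overlapped. Slco1a1, an uptake carrier, was not called (-0.06).

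Of 22 retinoid genes 6 fell and 1 rose. Cyp26a1, which degrades retinoic acid and is induced by it, lay at 8.29 to 11.20 (median 8.90) fed and 5.87 to 7.61 (median 6.68) fasted (-2.33 ± 0.393 SE, adjusted p = 4.72e-05), and Rarb, also induced by retinoic acid, lay at 8.78 to 9.31 (median 9.0) fed and 7.55 to 7.97 (median 7.74) fasted (-1.30 ± 0.136 SE, adjusted p = 8.8e-08). Both groups were apart. Rdh11, a retinal reductase, fell by 1.53, and Lrat, which esterifies retinol in stellate cells, also fell (-0.89). Retsat, a retinol saturase, went the other way, at 13.91 to 14.54 (median 14.16) fed and 15.64 to 16.18 (median 15.78) fasted (1.73 ± 0.133 SE, adjusted p = 9.87e-10). Rbp4, the carrier of retinol in plasma, was level (0.05).

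Of 34 genes of iron and heme, 6 rose and 3 fell. Hamp and Hamp2 encode hepcidins and differed in direction. Hamp lay at 16.13 to 16.99 (median 16.55) fed and 16.63 to 17.22 (median 17.05) fasted and rose by 0.60 (adjusted p = 0.0017) with overlapping arrays, a call that was lost without LWT_Fed replicate 1 (0.47), 2 (0.56) or 4 (0.56) or LWT_Fasted replicate 3 (0.55) or 6 (0.54). Hamp2 lay at 13.19 to 15.86 (median 14.67) fed and 11.09 to 12.59 (median 11.99) fasted and fell by 2.48 (SE 0.394, adjusted p = 2.31e-05). Targets of bone morphogenetic protein signalling in the same list, Id1, Atoh8 and Smad7, rose by 1.54, 1.22 and 0.74, and Tfrc, the transferrin receptor, fell by 0.96. The second probes of Smad7 and Tfrc gave 0.41 and -0.45. Alas1, the first enzyme of heme synthesis, rose by 0.88 with overlapping arrays.

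Genes in no list were taken by the size of their change, with array groups that did not overlap. Those that rose most included Pip5k1a, a phosphatidylinositol phosphate kinase (4.85), although its 2 other probes gave 0.07 to 0.16, Rab30, a small GTPase of the Golgi (3.11), Ctcflos (2.51) and Asic5, an ion channel subunit (2.69). Rab30 lay at 7.42 to 8.25 (median 7.74) fed and 10.76 to 11.17 (median 11.02) fasted (SE 0.135, adjusted p = 2.07e-13). Membrane carriers among them were Slc16a5 at 2.65, Mfsd7c at 2.48, Slc25a34 at 2.42, Slc22a21, a carnitine carrier beside Slc22a5 in the family, at 2.16 and Slc41a3 at 2.12. Fbxo31, a ubiquitin ligase subunit, rose by 2.29 with a second probe at 0.31. Those that fell most included Aqp8, a water channel of hepatocytes, at 14.78 to 15.62 (median 15.48) fed and 10.97 to 12.52 (median 11.91) fasted (-3.44 ± 0.236 SE, adjusted p = 1.77e-10). Slc2a4, the insulin-regulated glucose carrier GLUT4, fell by 3.31 to a level well above background on 3 of 6 fasted arrays. Nrep, Serpina9, Sgsm1, Fam198a, Atp2b2, Mycn and Ptk6 fell, Fam198a and Atp2b2 to levels well above background on 2 and 3 of 6 fasted arrays (-2.91, -2.76, -2.62, -2.52, -2.29, -2.26 and -2.13). The changes of Slc2a4, Fam198a and Atp2b2 rest on signals near background, so their sizes and ranks are not exact.

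**Figure D5:**
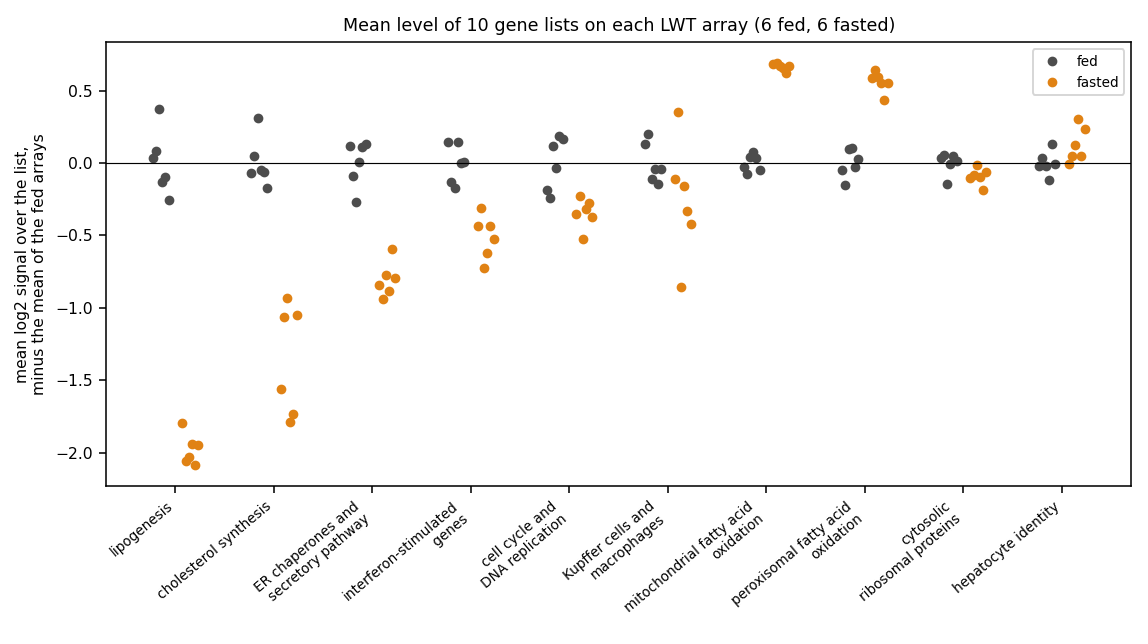
Mean log2 signal over all measured genes of 10 lists on each LWT array, minus the mean of the 6 fed arrays of the same list, for fed (grey) and fasted (orange) mice. Fasted arrays lie below all fed arrays for lipogenesis, cholesterol synthesis, ER chaperones and interferon-stimulated genes and above all of them for both oxidation lists. Cell cycle genes, Kupffer cell markers, ribosomal proteins and hepatocyte identity genes overlap. For ribosomal proteins the overlap rests on LWT_Fed replicate 3 (mean 15.37). The other fed arrays (15.51 to 15.57) lie above all fasted arrays (15.33 to 15.50).

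The tissue was checked against markers of its cell types. Alb, albumin, lay at 18.95 to 19.01 (median 18.98) fed and 18.98 to 19.01 (median 18.98) fasted (0.01, adjusted p = 0.777). Levels were quantile-normalized, so a gene as bright as Alb is held near a fixed level by its rank. Its level therefore says little about hepatocyte content. Of 20 hepatocyte identity genes only Prox1, a hepatocyte transcription factor, was called (1.18). The count was 3 without LWT_Fed replicate 5 and 2 without LWT_Fasted replicate 6. None of 16 endothelial markers and none of 16 markers of lymphocytes and neutrophils was called by limma, with 5 and 6 at an unadjusted p under 0.05. Up to 3 endothelial markers were called lower without LWT_Fasted replicate 1, 2, 4 or 5 or LWT_Fed replicate 4, and 3 markers of lymphocytes and neutrophils without LWT_Fasted replicate 1. Stab2 of sinusoidal endothelium stood at -0.07 and Cd3e of T cells at 0.05. Of 16 markers of stellate cells and fibroblasts 3 fell and 1 rose. Lrat and the collagen gene Col3a1 fell (-0.89 and -0.89), the latter with a second probe at -0.09. Adipoq, the defining marker of adipose tissue, was well above background on 2 of 6 fed and 3 of 6 fasted arrays at a mean log2 level of 5.73 fed and 5.76 fasted, and Ctrb1 of the pancreas stood at -0.27. Of 7 pancreas markers 2 fell, the elastases Cela1 and Cela2a (-0.60 and -0.79), both with overlapping arrays, and 1 of the 7 was called without LWT_Fasted replicate 1 or 4 or LWT_Fed replicate 4 or 6. The mean log2 level of the 7 was 8.59 to 8.72 on the fed and 8.33 to 8.55 on the fasted arrays, which do not overlap. Of 6 skeletal muscle markers none was called by limma, with 1 at an unadjusted p under 0.05.

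LWT_Fed replicate 3 and LWT_Fasted replicate 2 received the lowest array weights among these arrays, 0.317 and 0.439. Without the former, the counts of lower genes stayed at 15 for lipogenesis, 15 for cholesterol synthesis, 23 for ER chaperones and 18 for interferon-stimulated genes, and that of mitochondrial oxidation at 12 higher. In LKO livers, whose hepatocytes lack p110α, the fasting change was fitted in the same model, and 750 genes (3.46%) differed between genotypes in its size. The list medians there were -0.96 for lipogenesis, -1.12 for cholesterol synthesis, -0.81 for ER chaperones, -0.06 for interferon-stimulated genes and 1.11 for mitochondrial oxidation. By the interaction test, 6 of 17 lipogenic genes, 1 of 20 cholesterol genes, 1 of 38 ER genes, 9 of 39 interferon-stimulated genes and 1 of 22 mitochondrial oxidation genes differed.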

How the data were processed

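Liver RNA of 24 mice was labelled with Cy3 and hybridized to Agilent SurePrint G3 arrays, 1 colour and 1 array per mouse, on 3 slides. Agilent Feature Extraction 10.10.1.1 is named in the submitters' processing notes. The authors deposited log2 values of quantile-normalized median signals for 32595 probes, and these were used as deposited. The authors also deposited the scanner intensity values, which served for detection flags and for alternative normalizations. Probes were named from the scanner files (21652 gene names), and the brightest probe over all 24 arrays stood for a gene. Probe positions in these files are of build mm9, and promoter sequences are from RefSeq (GRCm38.p6).

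In limma 3.58.1 (R 4.3.3) group means and slide were fitted on all 24 arrays with array weights. The study's methods give limma with array weights and a correction for the washing bath before normalization; the slide term was added here. The moderated p-values were adjusted by the Benjamini-Hochberg method over all probes. P-values reflect the spread between mice. Means per group are unweighted, whereas fold changes are from the weighted fit. The script was tested on simulated data. A bound ("at least") sets the bright group's mean against the lowest signal well above background. The precision is limited by the number of arrays.

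Named genes are the first gene of each list, up to 2 called genes of largest change without overlap per list, and 10 genes in each direction outside the lists; other members were named for their role after their values were seen. The members and lists were chosen with earlier results of these data known. Some genes that meet the rule are not reported here. Alternatives covered probe choice, normalization, background correction, dim probes, weights, slide, a replicate block, thresholds and leaving out each array.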

Additional observations from a re-analysis of the deposited data

Results flagged for a closer look

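For some genes 1 array stood far from the others of its group, by a gap test that flags about 1 in 20 groups by chance. Of 370 groups tested (185 named genes in 2 groups) 21 had such an array, and 1 in 20 is about 18. LWT_Fasted replicate 2 had the highest log2 level of Cd163 (11.76, next 10.81), Gcgr (15.93, next 15.68), Gys2 (15.85, next 15.28) and Nkd1 (8.57, next 8.26) and the lowest of Nampt (11.65, next 12.24) and Pklr (7.89, next 8.85). LWT_Fed replicate 3 had the highest log2 level of Col1a1 (8.60, next 7.79), Crat (12.81, next 12.22), Mt2 (13.67, next 10.84), Pip5k1a (11, next 9.35), Plin2 (15.44, next 14.96) and Saa1 (17.85, next 14.16) and the lowest of Fh1 (14.44, next 14.67) and Sik3 (11.70, next 12.24). LWT_Fasted replicate 5 had the lowest log2 level of Cyp4a10 (16.44, next 16.87), Ehhadh (14.85, next 15.58) and Vnn1 (11.82, next 12.49). LWT_Fed replicate 4 had the lowest log2 level of Fabp5 (13.79, next 15.06). LWT_Fasted replicate 1 had the lowest log2 level of Gadd45g (12.41, next 14.22). LWT_Fed replicate 2 had the lowest log2 level of Ppp1r3g (6.92, next 7.55). LWT_Fed replicate 6 had the lowest log2 level of Sult1c2 (9.03, next 9.54).

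The fasting change differed between LKO and LWT livers by the interaction test in the same limma fit for the following named genes, given as the LKO log2 fold change minus that of LWT. Of the genes that rose in LWT, the difference was positive for Agpat9 (1.25), Apoa4 (2.71), Cox6b2 (1.03), Crat (0.72), Ehhadh (1.59), Fgf21 (2.04), Insig2 (0.75), Krt23 (1.75), Lamb3 (1.38), Pdk4 (1.68), Plin2 (1.26), Rab30 (0.82) and Slc22a5 (0.80). It was negative for Fbxo31 (-0.91), Fkbp5 (-0.62), Il1r1 (-1.64), Il6ra (-1.19) and Sds (-1.08). Of the genes that fell in LWT, the difference was positive, so that LKO fell less or rose, for Elovl6 (2.45), Fabp5 (2.28), Fasn (1.0), Gpam (1.04), Oasl1 (0.74), Pnpla3 (2.90), Pnpla5 (3.26) and Slc2a4 (1.36). It was negative for Bdh2 (-0.91), Car3 (-1.25), Col27a1 (-1.24), Hsd3b5 (-2.03), Slc22a30 (-0.85), Sult1c2 (-0.69) and Thrsp (-2.04). Of the genes not called in LWT, the difference was 1.75 for Lepr and -1.67 for Upp2. On the LWT_Fasted arrays Pnpla5 was well above background on 0 of 6, Pnpla3 on 1 of 6 and Slc2a4 on 3 of 6, so the differences of these genes rest on signals near background and are not exact sizes.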

How the results depend on the processing

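Across the alternatives tried, no named gene that was called higher or lower changed sign. The processed signal scaled to the 75th percentile gave 1599 genes higher and 1690 lower, in place of 1032 and 1123, and omitting the minimum fold change gave 4607 and 5025. For the difference in fasting change between genotypes, 750 genes became 2166 without a minimum fold and 423 at an adjusted p of 0.01. When each LWT array was left out in turn the counts ran from 948 to 1093 higher, from 1028 to 1214 lower and from 643 to 836 for the difference between genotypes. With the replicate block the counts were 1014 higher, 1106 lower and 803 for the difference. The replicate numbers give no sign of pairing, as the correlations of same-numbered arrays ran from -0.115 to 0.06. Of the 191 named genes' alternative values, 29 lost and 30 gained a call and 150 moved by more than the spread between mice. Igf1 and Lepr were among those called with the probe of largest variance. Calls of Adcy6, Col3a1, Eif4b, Ndufaf5, Nmrk1, Npc1 and Psme3 were lost with the mean over probes. Small list counts shifted with single arrays, among them PPAR and PGC-1 regulators, with 5 higher in place of 3 without LWT_Fasted replicate 6, and pericentral genes, with 1 higher in place of 3 without LWT_Fasted replicate 2. Dim genes may limit precision, which was not tested. On each LWT array 55.9% to 62.1% of spots were well above background, and leaving out dim probes gave 1027 genes higher and 1121 lower.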

Other observations

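Genes that mark the position of a hepatocyte in the lobule changed in both directions. Of 22 pericentral genes 3 rose and 3 fell (27.3%), and of 20 periportal genes 3 rose and 2 fell (25%), against 9.95% of all genes called either way. Among the pericentral calls, 0 rises and 1 fall had array groups without overlap. When single arrays were left out, the lowest pericentral count was 1 in each direction. Glul, the glutamine synthetase of the cells around the central vein, stood at -0.12 (adjusted p = 0.474). Nkd1, a target and inhibitor of Wnt signalling, lay at 8.67 to 9.53 (median 9.02) fed and 8.08 to 8.57 (median 8.16) fasted and fell by 0.94 (adjusted p = 2.22e-06). On the portal side Cdh1, E-cadherin, lay at 9.97 to 11.12 (median 10.55) fed and 8.63 to 9.48 (median 9.01) fasted and fell by 1.46 (SE 0.194, adjusted p = 2.46e-06), and Aldh1b1 fell by 1.15. Cyp2f2 was not called (-0.50) except without LWT_Fasted replicate 1, 4 or 5 (-0.59 to -0.63).

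Of 19 male-biased liver genes 3 fell and 1 rose, and of 14 female-biased genes 3 rose. Hsd3b5, a steroid dehydrogenase of male liver, lay at 14.10 to 14.73 (median 14.51) fed and 10.92 to 12.61 (median 11.84) fasted and fell by 2.56 (SE 0.303, adjusted p = 5.3e-07). Fmo2, a flavin monooxygenase, lay at 8.24 to 8.99 (median 8.67) fed and 9.29 to 10.24 (median 9.70) fasted and rose by 1.20 (adjusted p = 3.07e-07). The largest rise on the female side was that of Acot3 (3.13), which also belongs to the thioesterases.

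Of 39 genes of the extracellular matrix and its remodelling, 6 fell and 1 rose. Col27a1, a fibrillar collagen, lay at 11.05 to 11.44 (median 11.30) fed and 7.94 to 9.91 (median 9.26) fasted and fell by 1.99 (SE 0.177, adjusted p = 8.23e-09), whereas Lamb3, a laminin chain, lay at 7.06 to 7.78 (median 7.42) fed and 9.0 to 10.01 (median 9.37) fasted and rose by 2.00 (adjusted p = 3.46e-08), with other probes at 0.16 to 1.83. Col1a1 was not called (-0.27). Nid2, Mmp19 and Mmp15 fell (-0.98, -0.94 and -0.79). Among cholangiocyte markers the keratin genes Krt23 and Krt19 had opposite signs (1.83 and -0.67), while Epcam was level (-0.08). Of the erythroid markers Hemgn rose (0.91) and Alas2 was not called (-0.47). Of the adipose markers Cidea rose (1.19) and Car3 fell by 1.37. Upp2, a uridine phosphorylase, was not called (0.47, adjusted p = 0.0343). The translation inhibitor Eif4ebp1 and the nucleolar protein Ncl stood at 0.13 and 0.27.

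Other short motifs were searched on both strands of the same 250 bases, as descriptions. TTTNNCGC, an E2F site, was present in 8 of 33 cell cycle promoters (24.2%) and in 4.39% of all, TGATGNAA, an amino acid response element, in 6 of 25 (24.0%) against 3.53%, and CACGTG, an E-box, in 4 of 17 clock promoters (23.5%) and 1 of 17 lipogenesis promoters (5.88%) against 6.05%. The sterol element TCACNCCAC was in 1 of 17 lipogenesis promoters (5.88%) against 1.04%. TGCNCNC, a metal response element, was present in 14 of 20 promoters of metallothioneins and zinc carriers (70.0%) against 43.8%. AGGNCANAGGNCA, the PPAR response element, was in none of 20 mitochondrial and none of 17 omega-oxidation promoters and in 0.333% of all, and TGTTTAC, a FOXO site, in 1 of 20 promoters of the FOXO1 list against 3.09%.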
